A study of Mus musculus with 9 samples.

Results

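Polycomb repressive complex genes were followed in neonatal mouse ventricles with and without Arid1a in cardiomyocytes. The 9 genes were taken by name, from a rule that uses no threshold on the values, though earlier results of these data were known. They encode the PRC2 enzymes (Ezh2, Ezh1), the PRC2 core subunits Eed and Suz12, the PRC2 accessory factor Jarid2, the PRC1 subunits Bmi1, Cbx2 and Cbx7, and the opposing demethylase Kdm6b. All 9 of these genes were among the 38293 genes of the count table and among the 15318 genes tested, with total counts over the 9 libraries of 1894 (Cbx7) to 27038 (Jarid2).

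RNA came from whole ventricles at postnatal day 7 (P7) and was sequenced as stranded, single-end mRNA libraries. The control group was 5 Arid1a f/f littermates, which carry the floxed alleles and no Cre. The mutant group was 4 aMHC-Cre;Arid1a f/f animals (cKO). Both groups share the floxed alleles, so they differ by Cre as well as by the deletion it makes, and there was no group with Cre alone. The αMHC promoter drives Cre in cardiomyocytes, so the other cells of the ventricle are not its target. In whole tissue, fewer cells of a type and less RNA per cell cannot be told apart. Each label names a separate sample and the labels do not say how many animals a sample holds.

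Polycomb proteins keep developmental genes silent. PRC2 methylates lysine 27 of histone H3 (H3K27), through the enzymes EZH2 or EZH1, and PRC1 binds this mark through its CBX subunits and ubiquitinates histone H2A. EZH2 is the PRC2 enzyme of dividing and fetal tissue and is a known target of E2F factors, while EZH1 is the form that persists in resting cells. KDM6B (JMJD3) removes methyl groups from H3K27, and SWI/SNF complexes, to which ARID1A belongs, oppose Polycomb at many genes.

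The libraries held 31011055 to 40073801 counts, and 19418 to 20317 genes had at least 1 count. Arid1a itself was at 128.0 to 148.1 CPM (counts scaled to library totals of 1e6) in control and 100.3 to 112.9 CPM in cKO libraries, with no overlap. Summed markers of cardiomyocytes were lower in cKO (35046 to 39757 CPM) than in control (40097 to 47671 CPM), and summed fibroblast markers were higher (5435 to 5758 against 4133 to 4715 CPM). Past the test, 2 of 6 cardiomyocyte markers (Myl2 and Pln) were lower, and the study counts Myl2 among markers of maturation. Of 7 fibroblast markers, 4 (Col1a1, Col1a2, Tcf21 and Postn) were higher, and no marker on these lists was at 0. Against their sums went Actn2 (log2 fold change 0.225, adjusted p = 0.109) and Dcn (-0.045, adjusted p = 0.807, both by edgeR). Summed markers of endothelium, mural cells, macrophages, lymphocytes, erythroid cells, epicardium, Schwann cells and atrium overlapped between the groups, although of single markers Myl7 (atrium, 2.29-fold, adjusted p = 0.00493) was higher and Wt1 (epicardium, 0.757-fold, adjusted p = 0.0128, both by edgeR) was lower. Cutting across the genotypes, Rps3a3 was at 0.345 to 0.521 CPM in 5 libraries (control replicates 1 and 2, cKO replicates 1, 2 and 3) and at 99.7 to 112.3 CPM in the other 4. Fits within the 5 Rps3a3-low libraries and with this set as a term are given where they alter the call of a gene or a list's count of calls. Over all libraries edgeR gave Arid1a a log2 change of -0.39 (SE 0.06, adjusted p = 0.00132), and it passed in 18 of 19 settings. The exception was the Rps3a3-low libraries, with -0.33 (adjusted p = 0.0822 by edgeR).

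Of the 9 members, Jarid2 fell and the other 8 did not pass the test. The median log2 fold change (cKO against control) was -0.04 over the members and 0.009 over all genes tested, and the median absolute log2 fold change was 0.072 over the members and 0.171 over all genes. No member was called at an adjusted p under 0.05 with a fold over 1.5, where 6.72% of all genes tested were called. At an adjusted p under 0.05 alone, 1 of 9 members was lower and 0 were higher, against 8.03% lower and 8.25% higher among all genes. At an unadjusted p under 0.05, 2 of 9 passed (Jarid2 and Cbx7), against 29.7% of all genes. The 95% interval of the log2 fold change lay wholly inside a 1.5-fold change in either direction for 8 of 9 members, as it did for 9504 of the 15318 genes.

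Jarid2 (ENSMUSG00000038518, GRCm38 chr13:44729474-44921643, plus strand) encodes the founding Jumonji protein, which lacks demethylase activity, helps to bring PRC2 to its targets and is needed for heart development. It is shown with sequence because it is the one member that changed. RefSeq gives Jarid2 a pair of start sites on GRCm38.p6, and the 250 bases upstream of each are printed below in transcript direction, with CpG dinucleotides, which are typical of promoters that Polycomb can occupy, in capitals. Neither window overlaps an annotated exon. The first is chr13:44730524-44730773 and the second chr13:44731021-44731270, both on the plus strand. Both lie inside the annotated span of the gene given above.
Jarid2 start 1: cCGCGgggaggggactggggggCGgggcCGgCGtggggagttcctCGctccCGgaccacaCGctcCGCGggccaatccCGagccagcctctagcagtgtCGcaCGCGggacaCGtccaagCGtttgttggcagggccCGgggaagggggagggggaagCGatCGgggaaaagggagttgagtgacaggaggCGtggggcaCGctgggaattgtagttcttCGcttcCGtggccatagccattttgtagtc
Jarid2 start 2: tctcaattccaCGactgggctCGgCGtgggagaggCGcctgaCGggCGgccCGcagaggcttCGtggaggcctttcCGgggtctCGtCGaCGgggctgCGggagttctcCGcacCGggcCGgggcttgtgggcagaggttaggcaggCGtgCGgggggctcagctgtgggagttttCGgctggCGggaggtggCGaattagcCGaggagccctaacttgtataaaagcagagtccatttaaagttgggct

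These windows held 23 and 22 CpG dinucleotides, against a median of 6 (quartiles 2 and 16) over 32851 upstream windows of the same length. Among the members, 7 had a window, and the other windows held between 12 (Eed) and 37 (Suz12). All 250 bases of the Eed window are in annotated exons, as are 125 bases of the Ezh2 window and 122 of the Cbx7 window. The Cbx7 window also lies inside the annotated span of its gene. The windows are therefore not all alike in their place. Searches on both strands for E2F sites (TTTCCCGC or TTTGGCGC, in 1.3% of all windows), a TEAD site (GGAATG, in 12.6%) and a MEF2 site (CTANNNNTAG, in 3.2%) found no match in 6 of the 8 windows of the members, those of Jarid2 included. The matches were an E2F site upstream of Suz12 (chr11:79992876-79992905, plus strand) and a TEAD site upstream of Bmi1 (chr2:18676778-18676807, plus strand), shown with their flanks and the motif in capitals.
Suz12: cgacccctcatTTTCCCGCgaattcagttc
Bmi1: ggccgcccttaaGGAATGaggggagcacgt

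In control replicates 1 to 5, Jarid2 was at 99.7, 107.6, 92.7, 98.3 and 92.3 CPM. In cKO replicates 1 to 4 it was at 78.3, 65.5, 80.9 and 70.3 CPM. The groups did not overlap, and all 4 cKO libraries were the lower ones, which held for 8.58% of all genes in this direction. Control libraries averaged 98.1 ± 6.25 CPM (SD, n = 5) and cKO libraries 73.7 ± 7.10 CPM (SD, n = 4). Jarid2 thus decreased by 24.9%, with a log2 fold change of -0.41 (SE 0.08, 95% interval -0.58 to -0.25) that passed edgeR's quasi-likelihood test (adjusted p = 0.00323). It passed in all 19 other settings tried, with adjusted p between 1.21e-05 and 0.0402. Jarid2 changed by -0.47 in the Rps3a3-low set alone (adjusted p = 0.0402 by edgeR) and -0.42 in the Rps3a3-high set, which has 1 cKO library and no test. As a share of the summed level of the PRC2 genes (Lcor and Lcorl left out), each per kilobase (kb) of exonic length, Jarid2 was 5.23 to 6.65% in control and 4.20 to 5.06% in cKO libraries. Both marker sums named above also differed between the groups, lower for cardiomyocytes and higher for fibroblasts in cKO. Their part in the fall of Jarid2 was not tested.

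**Figure D1:**
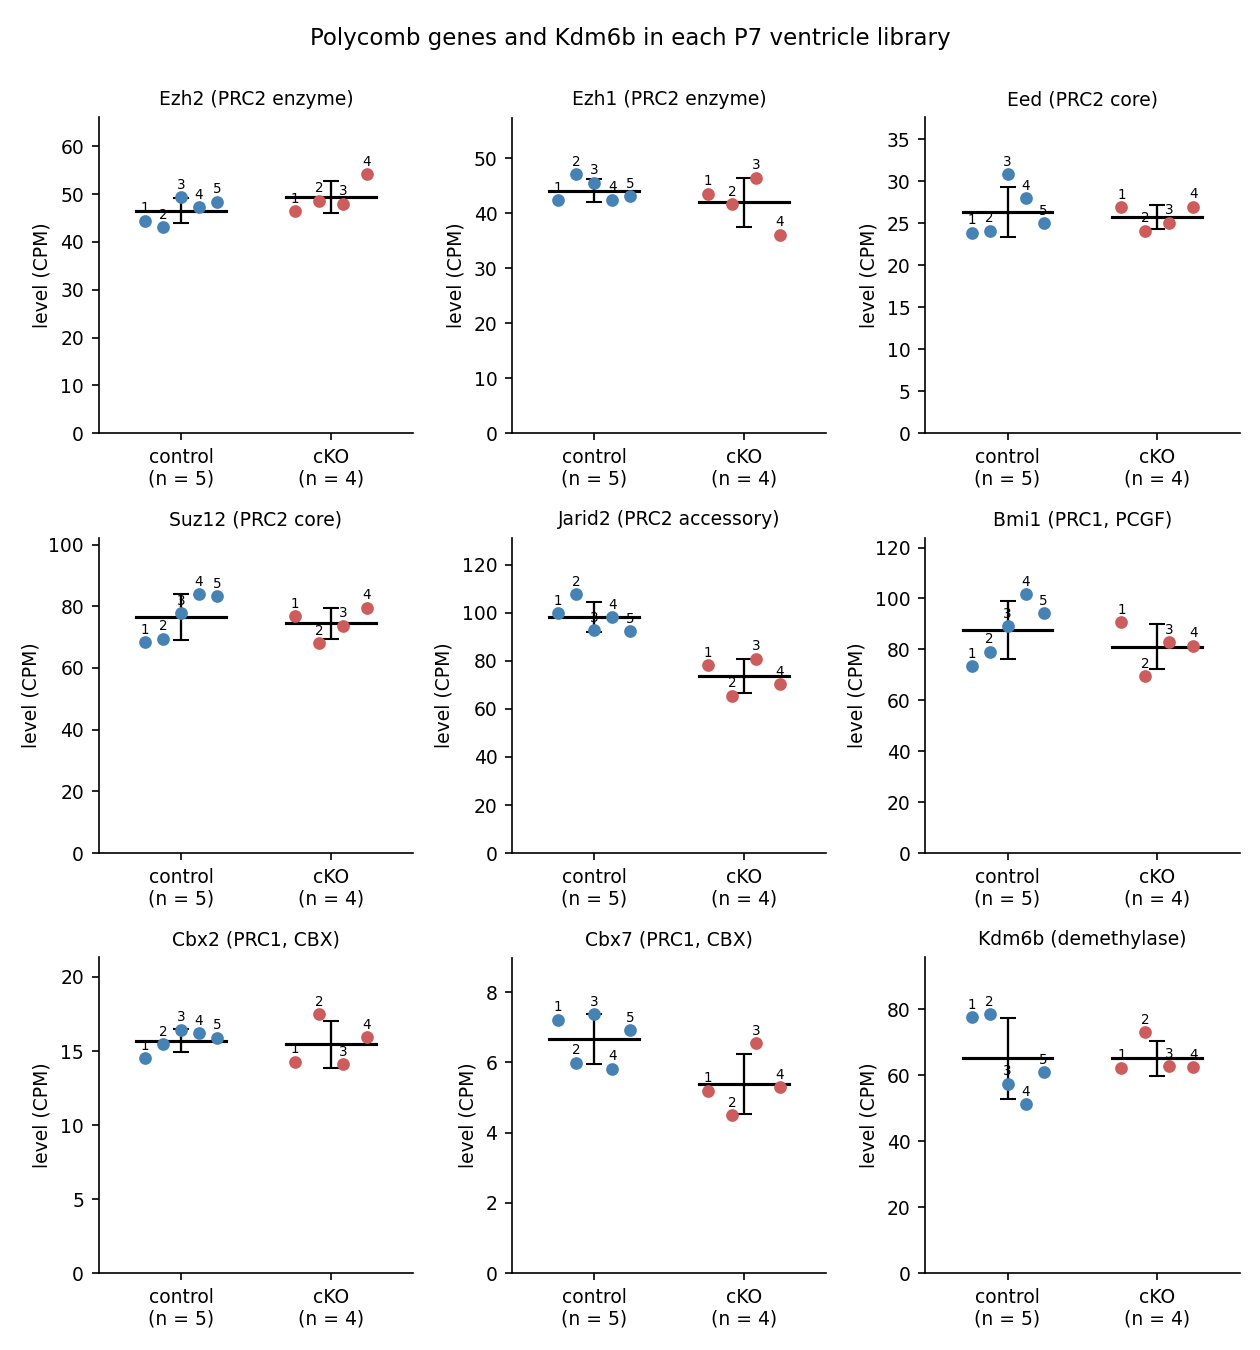
Level in CPM (vertical axes, from 0) of the 9 members in 5 control (blue) and 4 cKO (red) libraries, numbered by replicate; the bar is the mean and the whisker 1 SD. Jarid2, at 65.5 to 80.9 CPM in cKO, is the only panel in which the groups do not overlap, and cKO replicate 4 has the highest Ezh2 (54.1 CPM) and the lowest Ezh1 (36.1 CPM).

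The catalytic subunits did not pass the test. Ezh2 (ENSMUSG00000029687, chr6:47530139-47595341, minus strand), which carries most PRC2 activity in growing tissue, was at 44.4, 43.1, 49.4, 47.2 and 48.4 CPM in control and 46.5, 48.6, 48.0 and 54.1 CPM in cKO libraries. The cKO values lay within or above the control range, with cKO replicate 4 the highest of the 9. The log2 fold change of Ezh2 was 0.08 (SE 0.07, 95% interval -0.07 to 0.24, adjusted p = 0.454 by edgeR).

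Ezh1 (ENSMUSG00000006920, chr11:101191115-101226463, minus strand), the alternative enzyme of non-dividing cells, was at 42.4, 47.1, 45.6, 42.5 and 43.1 CPM in control and 43.6, 41.7, 46.5 and 36.1 CPM in cKO libraries. Of the cKO libraries, 2 of 4 lay inside the control range and 2 below it. Its log2 fold change was -0.07 (SE 0.08, 95% interval -0.24 to 0.10, adjusted p = 0.585 by edgeR).

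The ratio of Ezh2 to Ezh1, taken within each library and therefore free of scaling between libraries, asks whether the balance of the PRC2 enzymes shifted. Per exonic length it was 1.17, 1.02, 1.21, 1.24 and 1.25 in control and 1.19, 1.30, 1.15 and 1.67 in cKO libraries. At P7 Ezh2 was thus the more abundant mRNA per length in every library, and the groups overlapped. The mean was 1.18 ± 0.0936 (SD, n = 5) in control and 1.33 ± 0.237 (SD, n = 4) in cKO, a difference of 0.16 on the log2 scale (SE 0.13, two-sided exact permutation p = 0.278, adjusted p = 0.417 over 3 ratios, on 126 splits with a smallest possible p of 0.00794). cKO replicate 4 held the highest ratio, and without it the log2 difference was 0.04.

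Ezh2 was set beside 20 proliferation genes because it is known to follow the cell cycle. The list was written with earlier results of these data known, so that its direction is not independent evidence. All 20 had positive log2 fold changes, with a median of 0.35 against 0.009 over all genes, and 6 of 20 were higher at an adjusted p of 0.05 (edgeR), as were 8.25% of all genes. Of these 6, Plk1, a mitotic kinase, rose by 0.67 (SE 0.18, adjusted p = 0.0249), Rrm2, a subunit of ribonucleotide reductase, by 0.56 (SE 0.12, adjusted p = 0.00568) and the replicative helicase subunit Mcm7 by 0.48 (SE 0.10, adjusted p = 0.00433). The others were Mcm3 (0.43, adjusted p = 0.0254), Mcm5 (0.41, adjusted p = 0.0332) and Cdk1 (0.40, adjusted p = 0.0480). Ccna2, the most abundant of the 20 per length with Rrm2, was at 0.31 (adjusted p = 0.119). Of 19 other settings, Rrm2 and Mcm7 each passed in 18, Mcm3 in 13, Plk1 in 12, Mcm5 in 11 and Cdk1 in 8. When the model also held a term for the Rps3a3 set, 14 of the 20 were higher, Ccna2 among them at 0.42 (adjusted p = 0.00425 by edgeR). The number past the test depended on the libraries, with 2 without cKO replicate 4 and 14 without cKO replicate 1 (2 without control replicate 3 or cKO replicate 2, and 3 without control replicate 2, 4 or 5). Within the Rps3a3-low set 0 of the 20 passed by edgeR, against 5.44% of all genes, and 9 had an unadjusted p under 0.05, against 19.3% of all genes, with Plk1 at 0.56 (adjusted p = 0.361), Rrm2 at 0.52 (adjusted p = 0.0568) and Mcm7 at 0.44 (adjusted p = 0.160).

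The summed level of the 20 genes was 1080, 898.3, 1107, 1141 and 990.8 CPM over the control libraries and 1079, 1453, 1201 and 1594 CPM over the cKO libraries, in replicate order. cKO replicate 4 thus had the highest sum, the highest Ezh2 and the lowest Ezh1. cKO replicate 2, with the next highest sum, had 48.6 CPM of Ezh2 and lay within the control range. The median of the 20 log2 fold changes was 0.24 without cKO replicate 4 and 0.46 without cKO replicate 1. The cardiomyocyte marker sum, lower in cKO, and the fibroblast marker sum, higher in cKO, also differed between the groups. Their part in the rise of the proliferation genes was not tested.

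**Figure D2:**
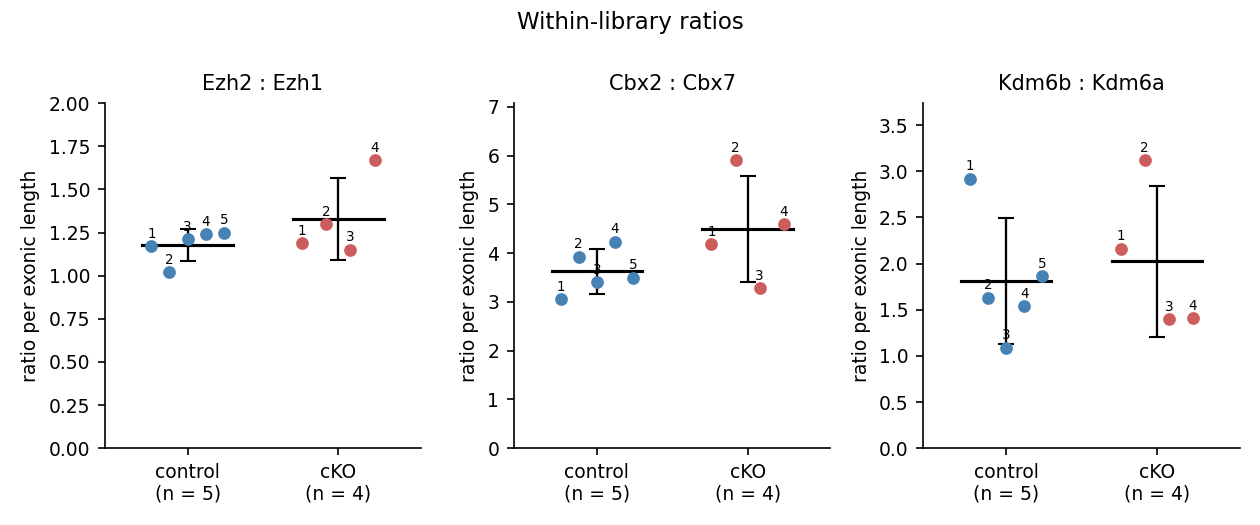
Ratios of exonic-length-scaled levels within each library (vertical axes, from 0) for Ezh2 to Ezh1, Cbx2 to Cbx7 and Kdm6b to Kdm6a, in 5 control (blue) and 4 cKO (red) libraries numbered by replicate; the bar is the mean and the whisker 1 SD. The groups overlap in all 3 panels, and the highest Ezh2 to Ezh1 ratio, 1.67, belongs to cKO replicate 4.

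The genes whose levels followed Ezh2 most closely over the 9 libraries, after each group's mean was removed, were Jazf1 (Pearson's r 0.986), Rasl11b (0.969), Rdh11 (0.965), Acsl3 (0.963) and Nup133 (0.960). Those closest to Ezh1 were 1600020E01Rik (0.956), Pik3ip1 (0.954), Zfp112 (0.954), Stx5a (0.950) and Asb15 (0.945). These are the highest values among 11063 genes in 9 libraries that share scaling and depth, and they are given as descriptions. Neither of these lists held a member or one of the 20 proliferation genes.

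The core subunits that both enzymes need were also within the spread of the libraries. Eed (ENSMUSG00000030619, chr7:89954654-89980983, minus strand), the subunit that reads methylated H3K27, was at 23.9, 24.1, 30.8, 28.0 and 25.0 CPM in control and 26.9, 24.1, 25.1 and 26.97 CPM in cKO libraries. All cKO values of Eed lay inside the control range, and its log2 fold change was -0.03 (SE 0.09, 95% interval -0.23 to 0.16, adjusted p = 0.840 by edgeR).

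Suz12 (ENSMUSG00000017548, chr11:79993106-80034123, plus strand), the scaffold of PRC2, was at 68.3, 69.5, 77.8, 83.8 and 83.2 CPM in control and 76.7, 67.9, 73.7 and 79.5 CPM in cKO libraries. Control replicates 1 and 2 were the lowest controls, and cKO replicate 2 lay just under them. The log2 fold change was -0.04 (SE 0.08, 95% interval -0.21 to 0.14, adjusted p = 0.783 by edgeR). The E2F match printed above is upstream of this gene.

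Among 9 other PRC2 genes, 1 was lower, 0 were higher and 8 did not pass, against 8.03% lower and 8.25% higher among all genes. Aebp2, a DNA-binding accessory subunit that occurs with JARID2 in the same form of PRC2, was at 69.8, 70.7, 74.1, 79.3 and 75.6 CPM in control and at 63.3, 58.3, 63.9 and 64.3 CPM in cKO libraries, with no overlap. In edgeR's test its decrease passed, with -0.24 on the log2 scale (SE 0.06, adjusted p = 0.0204). Aebp2 passed in 16 of 19 settings. The exceptions include the fit that left out cKO replicate 2 (-0.21, adjusted p = 0.0515 by edgeR) and the Rps3a3-low set (-0.18, adjusted p = 0.298 by edgeR). The most abundant of the list per length, the histone chaperones Rbbp7 (-0.05, SE 0.07, adjusted p = 0.687) and Rbbp4 (-0.05, SE 0.06, adjusted p = 0.628), did not pass. Both chaperones also serve other chromatin complexes.

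None of the PRC1 members passed the test over all genes. Bmi1 (ENSMUSG00000026739, chr2:18677018-18686629, plus strand), the PCGF subunit of canonical PRC1 and a known repressor of the Cdkn2a locus, was at 73.4, 79.2, 89.2, 101.6 and 94.3 CPM in control and 90.7, 69.6, 82.7 and 81.5 CPM in cKO libraries. The control libraries were spread wider than the cKO libraries, and 3 of 4 cKO values lay within the control range. The log2 fold change was -0.11 (SE 0.10, 95% interval -0.33 to 0.11, adjusted p = 0.515 by edgeR).

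Cbx2 (ENSMUSG00000025577, chr11:119022962-119031270, plus strand), a CBX reader able to compact chromatin, was at 14.5, 15.5, 16.4, 16.2 and 15.9 CPM in control and 14.3, 17.5, 14.1 and 16.0 CPM in cKO libraries. The cKO values fell on both sides of the control range, and the log2 fold change was -0.02 (SE 0.09, 95% interval -0.22 to 0.17, adjusted p = 0.892 by edgeR).

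Cbx7 (ENSMUSG00000053411, chr15:79915807-79971119, minus strand), the CBX reader known from stem cells, had the lowest level of the 9 members, at 7.22, 5.99, 7.37, 5.82 and 6.92 CPM in control and 5.19, 4.51, 6.55 and 5.30 CPM in cKO libraries. Of the cKO values, 3 of 4 lay below every control. The log2 fold change was -0.31 (SE 0.14, 95% interval -0.60 to -0.01), with an unadjusted p of 0.0440 and an adjusted p of 0.155 by edgeR. It did not pass in any of the 19 other settings (adjusted p 0.0802 to 0.531), and it is the member whose interval reaches past a 1.5-fold decrease. Its exons share 100 bases with Apobec3 on the other strand, and the strand setting of the counting is not given in the sources used here. The ratio of Cbx2 to Cbx7 per length was 3.63 ± 0.464 in control (SD, n = 5) and 4.49 ± 1.09 in cKO (SD, n = 4), a log2 difference of 0.29 (SE 0.19, exact permutation p = 0.167, adjusted p = 0.417 over 3 ratios).

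Of 21 other PRC1 genes, 2 were higher, 2 lower and 17 did not pass an adjusted p of 0.05 (edgeR), and none was called at a fold over 1.5. The genes that rose were Cbx6 and Pcgf5. Cbx6, a CBX reader, was at 98.8 to 119.2 CPM in control and 125.2 to 147.1 CPM in cKO libraries. All cKO libraries were above the controls, as for 8.16% of all genes in this direction. It rose by 0.26 (SE 0.07, adjusted p = 0.0297 by edgeR). Pcgf5, a PCGF subunit of variant PRC1, rose by 0.30 (SE 0.08, adjusted p = 0.0315 by edgeR), with overlap between 33.6 to 41.2 CPM in control and 40.7 to 50.3 CPM in cKO libraries. Each passed in 3 of the 9 fits that left out a library. Cbx6 did not pass without control replicate 3, 4 or 5 or without cKO replicate 2, 3 or 4, with log2 fold changes of 0.20 to 0.27 and adjusted p of 0.0526 to 0.0829 by edgeR. Pcgf5 did not pass without control replicate 1, 2, 4 or 5 or without cKO replicate 3 or 4, with log2 fold changes of 0.24 to 0.31 and adjusted p of 0.0519 to 0.0992 by edgeR. Neither passed within the Rps3a3-low set, where Cbx6 was at 0.17 (adjusted p = 0.387) and Pcgf5 at 0.37 (adjusted p = 0.0722, both by edgeR).

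The genes that fell were Phc1 and Scmh1, which encode SAM domain proteins of canonical PRC1. Phc1, a polyhomeotic homolog, was at 29.0, 30.8, 28.8, 27.1 and 27.3 CPM in control and 22.0, 23.7, 21.5 and 22.5 CPM in cKO libraries, and it fell by 0.35 (SE 0.07, adjusted p = 0.00432 by edgeR). Scmh1 was at 72.0, 73.5, 68.5, 68.2 and 75.1 CPM in control and 56.2, 57.3, 57.7 and 56.9 CPM in cKO libraries, and it fell by 0.33 (SE 0.06, adjusted p = 0.00235 by edgeR). The groups did not overlap for either gene, and the cKO libraries of Scmh1 had an SD of 0.641 CPM. Both passed in 18 of 19 settings, the exception being the Rps3a3-low set, where Phc1 was at -0.41 (adjusted p = 0.0619) and Scmh1 at -0.35 (adjusted p = 0.0508, both by edgeR). The most abundant of the list per length were Yaf2 (0.01, SE 0.07, adjusted p = 0.931), an adaptor of variant PRC1, and Rnf2 (0.10, SE 0.13, adjusted p = 0.656), the catalytic ubiquitin ligase.

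**Figure D3:**
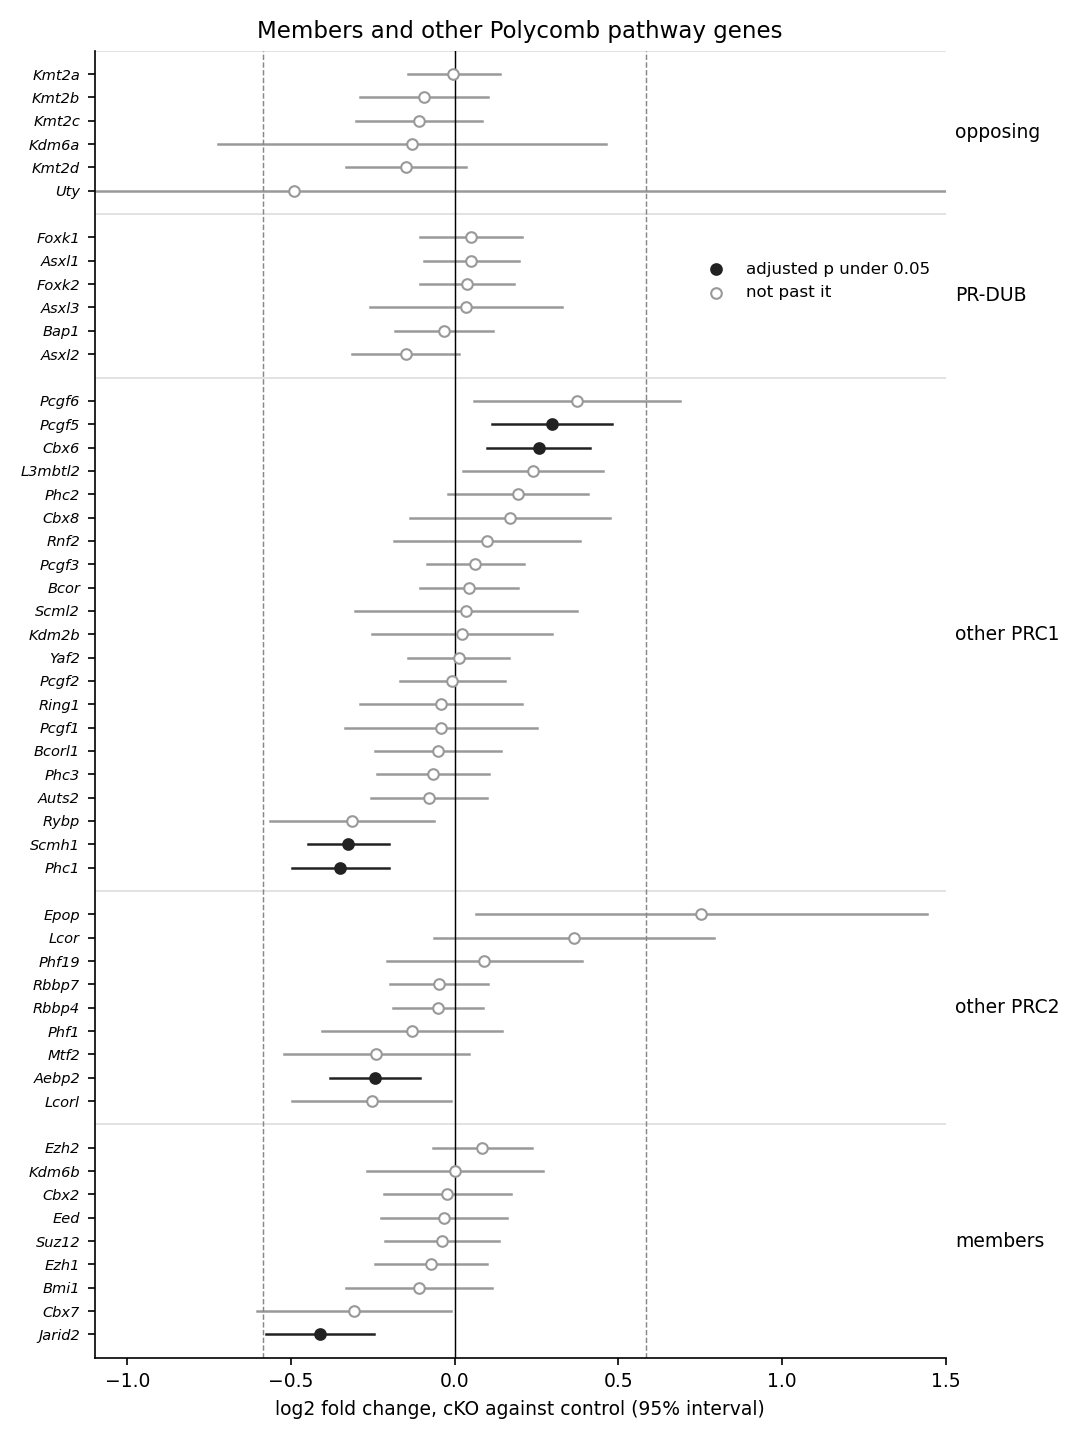
Log2 fold change of cKO against control (horizontal axis) with its 95% interval for the 9 members and the 42 other pathway genes tested; filled points have an adjusted p under 0.05 and dashed lines mark a 1.5-fold change. The filled points are Jarid2, Aebp2, Phc1 and Scmh1 on the lower side and Cbx6 and Pcgf5 on the higher side; the interval of Uty runs past both ends of the axis.

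Per kb of exonic length Cbx6 was at 10.4 ± 0.784 CPM in control (SD, n = 5) and 12.5 ± 0.943 CPM in cKO libraries (SD, n = 4), above the member Cbx2 (3.69 and 3.63 CPM per kb), Cbx8 (1.81 and 2.04) and the member Cbx7 (1.03 and 0.831). Among the PRC2 genes, again without Lcor and Lcorl, Rbbp7 made up 47.7 ± 1.02% of the summed level per length in control and 48.7 ± 0.533% in cKO, Rbbp4 averaged 14.1 and 14.3%, and Suz12 lay at 8.34 to 9.41% in control and 8.75 to 9.32% in cKO libraries. Ezh2 averaged 3.95 and 4.42%, Eed 3.89 and 4.02%, and Ezh1 3.37 and 3.38%. In the PCGF family Bmi1 was the largest share, at 46.1 ± 3.25% in control and 43.1 ± 2.47% in cKO. Pcgf2 averaged 19.3% in both groups, Pcgf3 18.1 and 19.0%, Pcgf1 7.47 and 7.30%, Pcgf5 6.12 and 7.57%, and Pcgf6 2.93 and 3.83%. These shares were not tested, and a share falls where another of its family rises.

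**Figure D4:**
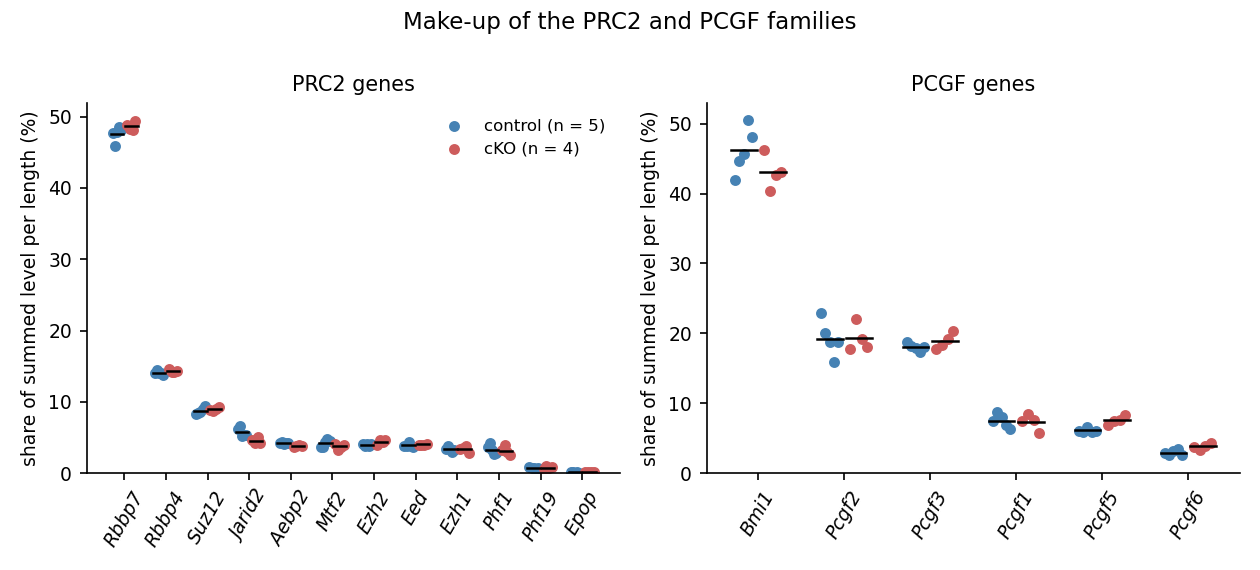
Share of each gene in the summed per-length level (vertical axes, percent) of the PRC2 genes and of the PCGF genes, with 1 point per library (5 control in blue, 4 cKO in red) and a bar at the mean. Rbbp7 and Bmi1 hold the largest shares in both groups, and the Jarid2 share is at 4.20 to 5.06% in cKO, below the 5.23 to 6.65% of the control libraries.

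Ordered by control level per kb, the members ran from Bmi1 (22.0 ± 2.85 CPM per kb, SD, n = 5) through Suz12 (15.5 ± 1.49), Jarid2 (10.1 ± 0.643), Kdm6b (9.37 ± 1.77), Ezh2 (6.97 ± 0.400), Eed (6.88 ± 0.781), Ezh1 (5.93 ± 0.281) and Cbx2 (3.69 ± 0.178) to Cbx7 (1.03 ± 0.110). Neighbours from Jarid2 down to Ezh1 overlapped in their control ranges, and the other neighbours did not. In cKO the order was the same except that Jarid2 (7.59 ± 0.731 CPM per kb, SD, n = 4) came after Kdm6b (9.38 ± 0.767), with no overlap between them, and next to Ezh2 (7.38 ± 0.498), which it overlapped.

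Kdm6b (ENSMUSG00000018476, chr11:69398508-69413675, minus strand), an inducible H3K27 demethylase, was at 77.7, 78.5, 57.5, 51.2 and 60.9 CPM in control and 62.3, 73.2, 62.9 and 62.4 CPM in cKO libraries. The group means were 65.2 ± 12.3 CPM (SD, n = 5) and 65.2 ± 5.34 CPM (SD, n = 4), and all cKO values lay inside the control range. The log2 fold change was 0.00 (SE 0.12, 95% interval -0.27 to 0.27, adjusted p = 0.998 by edgeR). Control replicates 1 and 2, which are in the Rps3a3-low set, were the highest of the 9 libraries. With genotype in the model the Rps3a3-high libraries were lower by 0.32 on the log2 scale (adjusted p = 0.0674 by edgeR), and 4.81% of all genes passed for the set. The genotype change of Kdm6b was -0.24 (adjusted p = 0.251 by edgeR) within the Rps3a3-low set.

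The X-linked demethylase Kdm6a (UTX) and its Y-linked paralog Uty, which has weak demethylase activity, lay apart by the Xist class of the library. Kdm6a was at 53.5 to 63.9 CPM in the 4 libraries with high Xist (control replicates 2 and 3, cKO replicates 3 and 4) and at 28.3 to 40.1 CPM in the other 5 libraries. Uty was at 0 in the former and at 23.9 to 38.3 CPM in the latter, and the sum of both genes was 52.3 to 78.4 CPM over all libraries. Kdm6a changed by -0.13 with genotype (SE 0.26, adjusted p = 0.783 by edgeR), and by -0.21 with the Xist level as a covariate (adjusted p = 0.141 by edgeR). The ratio of Kdm6b to Kdm6a per length was 1.81 ± 0.685 in control (SD, n = 5) and 2.02 ± 0.814 in cKO (SD, n = 4), a log2 difference of 0.16 (SE 0.36, exact permutation p = 0.675, adjusted p = 0.675 over 3 ratios). The sign of this difference turned without control replicate 3 (-0.01) and without cKO replicate 2 (-0.08). With Uty added to Kdm6a, which was tried only once the values were known, the log2 difference was 0.24 (adjusted p = 0.389, exact permutation).

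**Figure D5:**
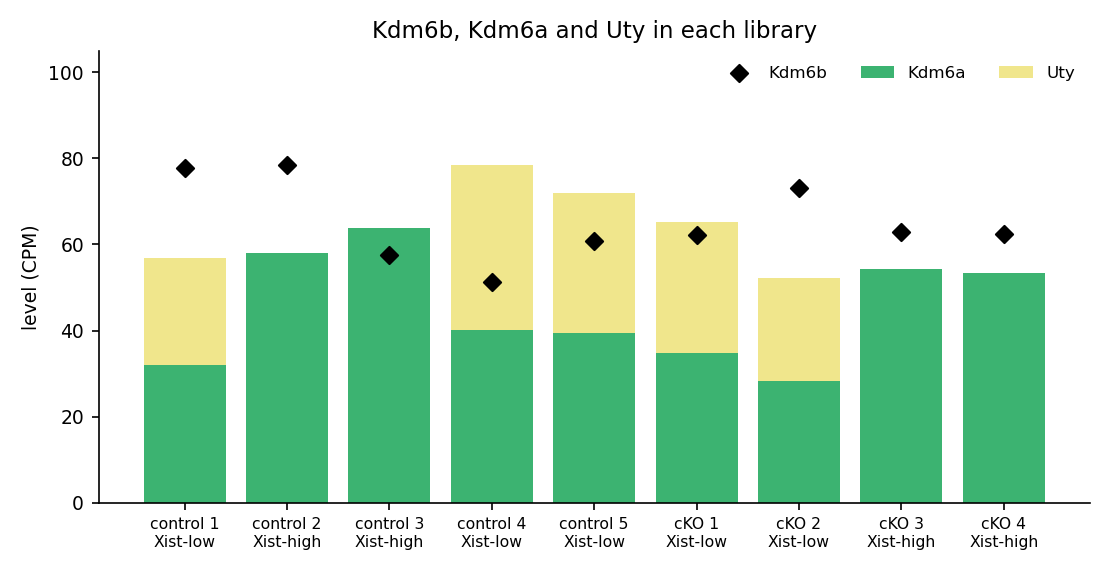
Level in CPM (vertical axis, from 0) of Kdm6a (green) and Uty (yellow) as stacked bars and of Kdm6b (diamonds) in each of the 9 libraries, named by group, replicate and Xist class. Kdm6a is at 53.5 to 63.9 CPM where Xist is high and Uty is at 0, and the stacked sum is at 52.3 to 78.4 CPM over all libraries.

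None of the 6 genes of the PR-DUB complex, which removes the PRC1 mark from histone H2A, passed edgeR's test. None of 6 opposing demethylase and trithorax genes passed it either. An unadjusted p under 0.05 was reached by 0 genes of either list, against 29.7% of all genes. The most abundant PR-DUB genes per length were the deubiquitinase Bap1 (-0.03, SE 0.07, adjusted p = 0.799) and the forkhead factor Foxk2 (0.04, SE 0.07, adjusted p = 0.744). The most abundant of the opposing list were the H3K4 methyltransferases Kmt2b (-0.09, SE 0.09, adjusted p = 0.523) and Kmt2d (-0.15, SE 0.08, adjusted p = 0.265, all by edgeR). Over the 4 pathway lists 42 genes were tested, and 2 were higher and 3 lower, which is 11.9% against 16.3% of all genes. Their median log2 fold change was -0.02 and their median absolute log2 fold change 0.096, against 0.009 and 0.171 over all genes. The number passing was 3 without control replicate 4 or 5 or without cKO replicate 2, 3 or 4. Within the Rps3a3-low set, 0 of the 42 passed by edgeR, and 6 had an unadjusted p under 0.05, against 5.44% and 19.3% of all genes. With the set as a term in the model 6 passed by edgeR, 3 higher and 3 lower.

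Of 46 textbook Polycomb targets, mostly Hox genes, 45 were in the table and 13 passed the filter on low counts. The 32 that did not pass it had at most 0.451 CPM in any library, and 15 had no count in any library. The highest value of any of the targets in any library was 2.75 CPM. Of these 13, 10 had positive log2 fold changes, with a median of 0.24 against 0.009 over all genes. A gene this low can pass the filter mainly through the group in which it is higher, as Hoxa7 did through cKO libraries. The direction of the 13 is therefore not independent of the filter, and no conclusion is drawn from it. None of the 13 passed an adjusted p of 0.05 by edgeR or DESeq2, where 16.3% of all genes passed by edgeR. An unadjusted p under 0.05 by edgeR was reached by 2 of the 13, against 29.7% of all genes. These were Hoxa7 and Hoxb5, both named after their values were seen. The most abundant per length, Hoxb4 (mean and SD of 1.66 ± 0.248 CPM in the 5 control and 2.01 ± 0.120 CPM in the 4 cKO libraries) and Hoxd8 (1.66 ± 0.541 and 1.95 ± 0.566 CPM), had adjusted p of 0.314 and 0.604. Hoxa7 was at 0.0323 to 0.377 CPM in control and 0.0726 to 0.875 CPM in cKO libraries, and without cKO replicate 4 it passed, with a log2 fold change of 2.04 (adjusted p = 0.0471 by edgeR). The depth of these libraries limits what can be said of genes at this level.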

How the data were processed

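The authors deposited raw read counts per gene, in 1 table with a column per library. Per the labels and the study's methods, total RNA was extracted with Trizol, libraries were made with a TruSeq stranded mRNA kit and sequenced single-end, and reads were mapped to mm10 (GRCm38). The submitters' processing notes name STAR 2.4.2a and HTSeq 0.6.1. The annotation and the strand setting are not given in the sources used here, so overlapping and antisense genes are uncertain. The study's methods give fewer controls than the labels, and all 5 labelled controls were used.

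Of 38293 identifiers 36429 were found in GENCODE M21, with 99.82% of the counts. Genes were kept by filterByExpr (minimum count 10), scaled by TMM and tested with genotype alone in edgeR 4.0.16 by its quasi-likelihood F test (R 4.3.3, robust, two-sided), with Benjamini-Hochberg adjustment over 15318 genes. CPM are counts relative to the library total after TMM scaling, per 1e6, and lengths are exonic lengths of GENCODE M21. p-values measure the spread between these samples, and the number of libraries limits precision. Ratios were tested by exact permutation. Alternatives were DESeq2 1.42.0, other scalings and filters, a block for the replicate number, terms for Xist level or library set, and leaving out libraries. The rule for named genes took all members, up to 6 genes past the test and the 2 most abundant genes per length of each list, and the 5 genes most like Ezh2 and Ezh1. The members and lists were chosen with earlier results of these data known. Promoter windows are those of RefSeq on GRCm38.p6. Kdm6b and Cbx2 had none. The result of 1 listed gene is not reported here.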

Additional observations from a re-analysis of the deposited data

Results flagged for a closer look

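In cKO replicate 2 the following levels stood apart from those of the other 3 cKO libraries by Dixon's criterion: Kdm6b at 73.2 CPM (next 62.9 CPM), Cbx6 at 147 CPM (next 129 CPM), Kmt2b at 76.3 CPM (next 63.6 CPM) and Kmt2d at 126 CPM (next 108 CPM), all higher, and Aebp2 at 58.3 CPM (next 63.3 CPM), which was lower. In all, 72 groups were examined, of which chance alone would single out about 1 in 20. Without cKO replicate 2, Aebp2 (adjusted p = 0.0515) and Cbx6 (adjusted p = 0.0829) were not past an adjusted p of 0.05 by edgeR.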

How the results depend on the processing

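Jarid2 fell past an adjusted p of 0.05 in all 19 alternatives (log2 fold change -0.47 to -0.36), and no other member passed in any of them. Within the 5 Rps3a3-low libraries, which have fewer samples, 620 genes were called in place of 1030, and 0 of the other pathway genes and 0 proliferation genes passed by edgeR (6 and 9 at an unadjusted p under 0.05). The other pathway genes past the test, 5 in the main fit, numbered 6 with the library set as a term and 3 to 6 when each library was left out. Proliferation genes past the test numbered 14 with the library set as a term and 2 to 14 when each library was left out, and textbook targets 0 to 1. The Ezh2 to Ezh1 difference was 0.438 in the Rps3a3-high set. That value rests on 1 cKO library, cKO replicate 4, which held the highest ratio of all libraries. That of Kdm6b to Kdm6a was -0.048 in the Rps3a3-low set and -0.081 to 0.348 when each library was left out. The causes of these differences were not tested.

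Replicate numbers do not pair the samples (same-number correlations of 0.033, 0.021, 0.183 and 0.267, and 0 of 4 cKO libraries closest to their own number). With the replicate number as a block 3 of the other pathway genes and 2 proliferation genes passed, and Aebp2 (adjusted p = 0.0724) and Cbx6 (adjusted p = 0.0566, both by edgeR) did not pass.

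Values close to 0 changed sign. Kdm6b was at -0.001 with DESeq2, RLE or the block, at -0.002 with scaling without the 10 most abundant genes, at -0.004 with no filter, at -0.090 with the set as a term and at -0.239 in the Rps3a3-low set. Pcgf2 was at 0.007 with upper-quartile scaling, 0.001 with a filter at 1 CPM and 0.003 with the block. With the set as a term Eed was at 0.029, Suz12 at 0.034, Cbx2 at 0.010 and Rbbp7 at 0.006. In the Rps3a3-low set Eed was at 0.080, Suz12 at 0.079, Cbx2 at 0.031, Bmi1 at 0.087, Rbbp7 at 0.045 and Rbbp4 at 0.007. When each library was left out, Eed ran from -0.067 to 0.029, Suz12 from -0.078 to 0.002, Cbx2 from -0.087 to 0.019, Kdm6b from -0.075 to 0.077, Kdm6a from -0.266 to 0.024, Pcgf2 from -0.048 to 0.032, Yaf2 from -0.046 to 0.046 and Bap1 from -0.078 to 0.003. Of the values for single genes under alternatives, 553 kept their direction and side of the threshold, 55 were no longer past it, 1 was newly past it (Ccna2 with the set as a term) and 37 changed sign.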
